A study of Mus musculus with 11 samples.

Results

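The domains of H3K4me1, histone H3 with a single methyl group on lysine 4, were compared between proliferating myoblasts and myotubes of C2C12, a mouse muscle cell line. They come from 2 of the 11 samples of the series, 1 ChIP-seq library for each stage, chosen by their labels. The deposited lists hold 66863 domains in myoblasts and 70587 in myotubes, and all of them were used. Myoblasts were kept in medium with 10% fetal bovine serum. Myotubes were taken after 48 h in medium with 2% horse serum and a supplement of insulin, transferrin and selenium. The labels give the strain as C3H for both and the same antibody (ab8895, Abcam) for both libraries.

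H3K4me1 is laid down mainly by the methyltransferases MLL3 and MLL4 and marks enhancers, both active and primed. At the starts of active genes it gives way to trimethylated lysine 4, so that it lies on both sides of the start. In muscle, MyoD begins the differentiation programme, MyoG follows when the cells leave the cycle, and both bind the E-box, written CANNTG with N for any base. The study asked how these factors and RNA made at enhancers, above all at the distal enhancers of Myod1, act in this programme. It also holds ChIP-seq of MyoD at both stages and of MyoG in myotubes, and RNA-seq at 4 h of differentiation, of myotubes at 48 h and of activated satellite cells; only the 4 h levels were used here. The comparison has 1 library a stage, from a single cell line, so no difference below has a replicate check and no test was made.

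Promoters of 6 muscle genes show what the gain of the mark looked like at the level of sequence. They were chosen after their values were seen, as genes of the muscle lists used below. The condition was that the upstream 250 bases lay wholly inside a myotube domain and outside every myoblast domain. These bases also had to hold both a MyoD and a MyoG peak in myotubes. Those of Myog held a MyoD peak in myoblasts too, and those of the others did not. The bases before the RefSeq start (build GRCm38.p6) are printed 5′ to 3′ along the gene's strand, with every CANNTG in capitals. CANNTG is found at the same places on either strand. Myog lies at chr1:134289754-134290003 on the plus strand, Myh3 at chr11:67078050-67078299 on the plus strand, Mybpc1 at chr10:88605153-88605402 on the minus strand, Lmod2 at chr6:24597521-24597770 on the plus strand, Cox8b at chr7:140900447-140900696 on the minus strand and Ckm at chr7:19410844-19411093 on the plus strand.
Myog: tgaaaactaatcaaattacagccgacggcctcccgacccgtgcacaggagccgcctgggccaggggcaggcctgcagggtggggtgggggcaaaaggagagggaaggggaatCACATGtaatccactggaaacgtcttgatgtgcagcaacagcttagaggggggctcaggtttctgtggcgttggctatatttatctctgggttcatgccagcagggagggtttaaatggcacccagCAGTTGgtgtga
Myh3: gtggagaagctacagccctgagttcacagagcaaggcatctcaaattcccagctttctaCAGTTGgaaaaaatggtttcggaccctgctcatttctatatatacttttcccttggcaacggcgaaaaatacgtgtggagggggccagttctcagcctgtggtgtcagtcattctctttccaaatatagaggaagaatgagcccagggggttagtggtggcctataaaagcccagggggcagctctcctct
Mybpc1: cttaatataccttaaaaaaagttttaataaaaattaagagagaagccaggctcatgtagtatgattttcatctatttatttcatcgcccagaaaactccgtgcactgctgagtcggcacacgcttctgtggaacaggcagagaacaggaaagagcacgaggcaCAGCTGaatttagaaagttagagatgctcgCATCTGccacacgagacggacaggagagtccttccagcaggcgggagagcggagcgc
Lmod2: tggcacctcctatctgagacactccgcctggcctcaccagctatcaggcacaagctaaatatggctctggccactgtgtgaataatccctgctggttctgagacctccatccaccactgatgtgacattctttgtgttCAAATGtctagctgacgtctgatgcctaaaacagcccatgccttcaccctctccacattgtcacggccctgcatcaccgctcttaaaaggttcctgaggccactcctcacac
Cox8b: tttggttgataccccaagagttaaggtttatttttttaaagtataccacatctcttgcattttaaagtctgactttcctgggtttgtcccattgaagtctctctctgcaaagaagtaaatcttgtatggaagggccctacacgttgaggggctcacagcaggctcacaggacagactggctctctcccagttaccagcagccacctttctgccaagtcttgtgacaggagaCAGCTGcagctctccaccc
Ckm: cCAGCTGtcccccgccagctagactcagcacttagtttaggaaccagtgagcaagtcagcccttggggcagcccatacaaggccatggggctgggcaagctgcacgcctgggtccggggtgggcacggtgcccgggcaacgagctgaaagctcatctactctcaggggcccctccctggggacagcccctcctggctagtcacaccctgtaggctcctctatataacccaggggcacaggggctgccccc

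Each of these promoters holds 1 or 2 E-boxes, and those of Mybpc1, Cox8b and Ckm hold CAGCTG, a form of the E-box that MyoD is known to prefer. E-boxes are common: 62.2% of the 10827 promoters matched by symbol hold at least 1 CANNTG in the same 250 bases, and 12% hold CAGCTG, which is itself a CANNTG. Promoters with a MyoD peak in myotubes, 1517 of them, held CAGCTG in 24.3% (95% exact interval 22.2% to 26.6%). Promoters of loci with longer H3K4me1 in myotubes, defined below, held it in 13.6%, and those of loci with shorter H3K4me1 in 13.4%. A match is a string of letters and not a binding site. Coverage and peaks were read in mm9 beside the locus end given by the authors, which need not be the RefSeq start.

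The myotube list covered more of the genome. Domains added up to 208 Mb in myoblasts and 236 Mb in myotubes, a ratio of 1.13 or 27.1 Mb more. The median domain was 2.2 kb long in myoblasts and 2.4 kb in myotubes. The stages differed more among the longest domains. Those of 20 kb or more numbered 318 in myoblasts and 487 in myotubes, and those of 50 kb or more 11 and 28. The longest myotube domains lay over Nfix (92.2 kb), Zmiz1 (78.8 kb) and Shb (76.6 kb), the longest myoblast domains over Cux1 (68.0 kb), Tns1 (65.2 kb) and Myh9 (58.8 kb). All 6 were covered for the most part at the other stage too: the Nfix domain, over a nuclear factor I gene that acts in fetal muscle and on a stretch of chromosome 8 with high control reads described below, had 89.2 kb inside 3 myoblast domains, and the Myh9 domain, over a nonmuscle myosin heavy chain gene, lay whole inside 1 myotube domain.

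**Figure D1:**
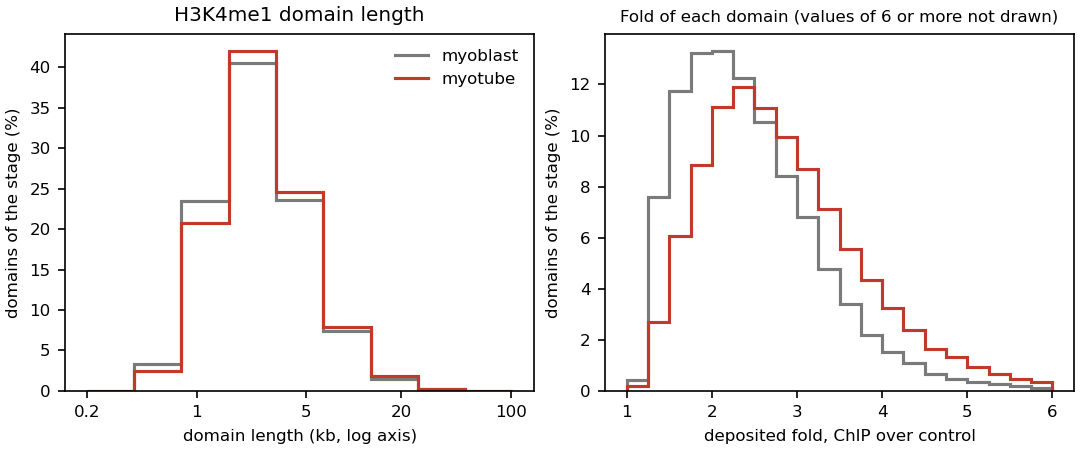
Length (left, kb on a log axis) and deposited fold of ChIP over control (right, linear axis) of the domains, as percent of the 66863 myoblast domains (grey) and the 70587 myotube domains (red). The lengths nearly coincide, with medians of 2.2 and 2.4 kb, while the folds of myotubes are shifted up, with medians of 2.32 and 2.70, on a scale that holds a constant for each file.

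The deposited fold was higher in myotubes, but the ratio of reads behind it was nearly equal. The fold is the ratio of ChIP to control reads times a constant for each file, 0.858 in myoblasts and 0.983 in myotubes. Its median was 2.32 in myoblasts, with a middle range of 1.85 to 2.92, and 2.70 in myotubes, with 2.16 to 3.40. Without the constants the median ratio of ChIP to control reads was 2.70 and 2.75, and over all domains together it was 2.90 and 2.92. Long domains had higher folds than short ones at both stages: from 12.8 kb upward the medians were 2.94 and 3.57. The 36830 domains that met exactly 1 domain of the other stage, which in turn met no other, had medians of 2.35 and 2.81, and 68.6% of them were higher in myotubes, or 54.9% without the constants. Their lengths were shifted in neither direction, 45.4% being longer and 45.9% shorter in myotubes. Domains held 45.8 ChIP reads and 15.8 control reads per kb in myoblasts, 37.5 and 12.9 in myotubes. Library depths and the source of the controls are not stated in the labels or files. The controls of the stages were not the same reads: of 1760 domains with identical coordinates, 4.26% had equal control counts. Library and stage cannot be told apart in these values, and folds below are on the deposited scale unless said.

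Most domains were present at both stages. At least 1 bp of 71.9% of myoblast domains (95% exact interval 71.5% to 72.2%) lay in a myotube domain, and of 68.3% of myotube domains (67.9% to 68.6%) in a myoblast domain. These intervals, and all others here, cover counting error only. Shared bases came to 138 Mb, which is 66.3% of the myoblast and 58.7% of the myotube bases. Myotubes added 45.0 Mb beside domains that were already there and 52.4 Mb in 22400 new domains. They lacked 36.1 Mb trimmed from domains that stayed and 34.1 Mb in 18811 lost domains. New and lost domains were shorter than the others: the median was 2.0 kb for new domains and 1.6 kb for lost ones, against 2.6 kb for overlapping domains of either stage. Their median ratio of ChIP to control reads was 2.45 and 2.61, against 2.90 for overlapping myotube and 2.74 for overlapping myoblast domains. Most long domains without a counterpart were new: 561 new and 103 lost domains reached 6.4 kb, and 45 new and 2 lost domains reached 12.8 kb.

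**Figure D2:**
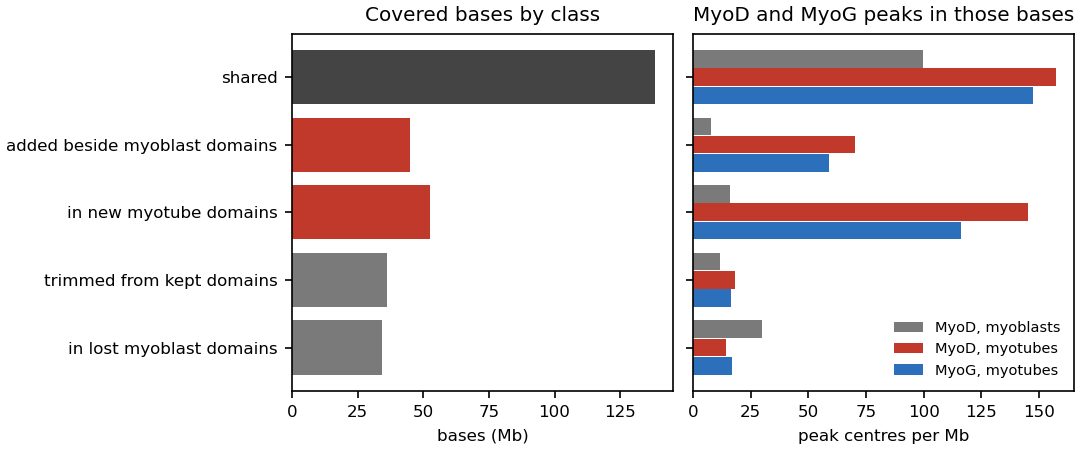
Bases by class (left, Mb) and centres of MyoD and MyoG peaks per Mb of those bases (right). Bases added beside myoblast domains and in new domains (red bars at left) hold 70.4 and 145 myotube MyoD peaks per Mb, while trimmed and lost bases (grey bars) hold 18.2 and 14.6.

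MyoD and MyoG peaks of myotubes lay in the added bases far more densely than in the lost ones. Bases in new domains held 145 myotube MyoD peaks and 116 MyoG peaks per Mb, close to the 157 and 147 of shared bases. Lost domains held 14.6 and 16.9. MyoD peaks of myoblasts ran the other way and at lower density, with 16.1 per Mb in new domains and 29.9 in lost ones. As a share of domains, 31.3% of new domains (95% exact interval 30.7% to 32.0%) and 3.72% of lost ones (3.45% to 4.00%) met a myotube MyoD peak. The gap was present at each length: from 1.6 to 3.2 kb the shares were 29.0% and 3.19%, and from 3.2 to 6.4 kb 49.1% and 4.03%. Among new domains of 6.4 to 12.8 kb, 77.9% met a myotube MyoD peak and 67.8% a MyoG peak. Such shares were not particular to new domains. Myotube domains of that length that overlapped a myoblast domain gave 77.7% and 71.1%. Over all lengths 37.4% of overlapping myotube domains met a myotube MyoD peak, beside the 31.3% of new ones. The MyoD lists differ in size, 18141 peaks in myoblasts and 39700 in myotubes. Of the myotube MyoD peaks, 57.6% were centred in domains that existed in myoblasts and 81.9% in myotube domains.

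The covered length of gene loci was then measured, as kilobases inside domains over each locus of the expression tables plus 20 kb on each side. A locus was called longer or shorter at a difference of 5 kb or more between myotubes and myoblasts. Of 20238 loci, 4045 (20%) were longer in myotubes and 2059 (10.2%) shorter. The median difference was 0.0 kb, and 4087 loci had no domain at either stage. Calls came more often in wide windows, with 8.87% longer and 5.85% shorter in windows up to 46.4 kb and 31.5% and 17% in windows from 91.2 kb. The balance of calls moved with the domains admitted: 66.3% of called loci were longer with all domains, 54.8% when the highest folds were kept until both stages covered the same 188 Mb, and 89.7% with domains of fold 3 or more only. That last threshold keeps 53.3 Mb in myoblasts and 104 Mb in myotubes. It acts on the scaled fold: with a read ratio of 3 or more before scaling, a choice added after seeing the data, 93.4 and 111 Mb remained, 3757 loci were longer and 1457 shorter, and 72.1% of calls were longer. Of 32 named loci whose sign turned with fold 3 or more, 16 also turned with the unscaled ratio.

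Longer loci were more often expressed and richer in myogenic factor peaks. Their median FPKM (fragments per kilobase of transcript, scaled to the library) in control cells with RNAi against GFP, at 4 h of differentiation, was 6.29. It was 4.21 for shorter loci and 0.302 for loci within 5 kb. The level of 1 FPKM was reached by 69.0%, 62.2% and 45.6%. Windows of longer loci held 49.6 myotube MyoD peaks per Mb against 19.5 in shorter ones, while myoblast MyoD peaks were closer, 15.8 and 13.0. Median windows were similar, 75 and 77.3 kb. Loci within 5 kb had a median window of 54.9 kb and a median of 4.2 kb covered in myoblasts, against 13.2 kb for longer and 18.8 kb for shorter loci.

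**Figure D3:**
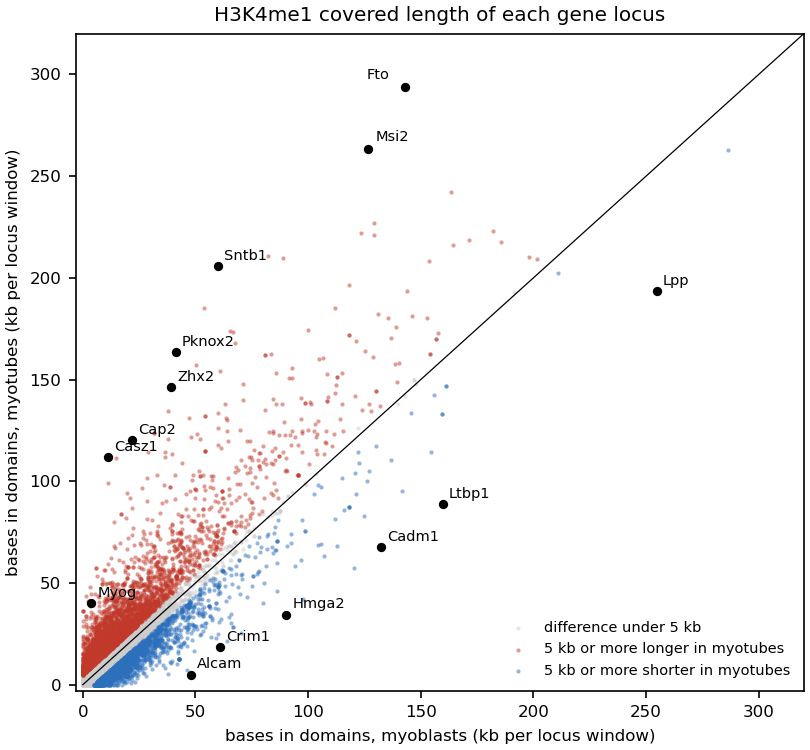
Kilobases in H3K4me1 domains per locus window in myoblasts (x) and myotubes (y), 1 point for each of 20238 loci, with the diagonal of equal length. Fto, Msi2 and Sntb1 stand highest above the diagonal, and Ltbp1, Cadm1 and Lpp are among those farthest below it.

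Measured as share of the window, Myog had the largest rise of all 20238 loci. The gene of the MyoG factor itself (chr1:136186580-136189125, mm9) had 3.8 kb of its 42.5 kb window covered in myoblasts and 40.1 kb in myotubes, or 8.93% and 94.3%. In myoblasts there were 2 short upstream domains, the larger of 2.4 kb with 91 ChIP reads over 41 control reads and a fold of 1.90 (95% exact interval 1.30 to 2.83). In myotubes 1 domain of 23.4 kb ran across the gene and its promoter, with 1312 reads over 324 and a fold of 3.98 (3.52 to 4.51). A second of 18.8 kb with no myoblast counterpart followed it into Ppfia4 at a fold of 3.86 (3.34 to 4.48). MyoD peaks in the window numbered 2 in myoblasts and 16 in myotubes, with 11 MyoG peaks. Neighbouring loci were longer too. The locus of Mybph and Adora1 went from 6.0 to 57.4 kb, Chi3l1 from 6.0 to 32.8 kb and Ppfia4 from 14.0 to 68.0 kb. Windows of neighbours can overlap, as those of Myog and Ppfia4 do, so not all of these are separate gains. The window of Mybph and Adora1 does not overlap that of Myog. Of the neighbours, Mybph codes for a myosin-binding protein of muscle, while Chi3l1 was at 0.0384 FPKM at 4 h and Myog at 10.2.

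The other myogenic factors differed less. Myod1 had 10.8 kb covered in myoblasts and 21.6 kb in myotubes, where a domain of 16 kb with a fold of 3.64 (95% exact interval 3.08 to 4.32) lay upstream in place of one of 8.2 kb with a fold of 1.92 (1.51 to 2.45). Myf5 and Myf6, neighbours that share an enhancer region, had 15.6 kb each in myoblasts and 14.6 and 15.6 kb in myotubes. Both were longer in myotubes with fold 3 or more, by 10 and 11 kb, and at equal covered bases, by 1.0 and 2.0 kb. Mef2c, a cofactor of the myogenic factors, was nearly bare at both stages, with 1.0 and 1.8 kb of a window of 204 kb. Mef2a went from 29.1 to 51.8 kb and Mef2d from 28.6 to 36.2 kb. The E-protein partners of MyoD stood out: Tcf12 went from 99.7 to 175 kb and Tcf4 from 105 to 160 kb. Tead1 and Tead4, factors that bind muscle gene promoters, had 45.0 and 40.8 kb more in myotubes. Of 26 myogenic regulators, 15 were longer and 1, the homeobox cofactor Eya4 (123 and 109 kb), was shorter, with a median difference of 7.2 kb. These shares, 57.7% and 3.85%, stand beside 20% and 10.2% of all loci. With fold 3 or more, Eya4 was 24.4 kb longer, and with the unscaled ratio 15.4 kb shorter.

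Genes of the contractile apparatus had the highest share of longer loci of the 16 lists with all domains and flanks of 20 kb. With fold 3 or more myogenic regulators had a higher share (76.9% against 66.0%, beside 24.3% of all loci). With flanks of 5 kb myogenic regulators and excitation genes had higher shares (53.8% and 64.7% against 48.9%, beside 13.3% of all loci). Of 47 sarcomere genes, 36 were longer and 1 shorter, with a median difference of 9.0 kb. These shares, 76.6% and 2.13%, stand beside 20% and 10.2% of all loci. Actn2, the Z-disc alpha-actinin, went from 2.2 to 41.2 kb with 1 MyoD peak in myoblasts and 8 in myotubes. Mybpc1, slow myosin-binding protein C, went from 5.4 to 44.4 kb, embryonic myosin Myh3 from 3.6 to 35.6 kb and the actin nucleator Lmod2 from 6.4 to 28.8 kb. Titin, Ttn, had 1.2 kb in myoblasts and 29.8 kb in myotubes, a small part of its 319 kb window. The actins Acta1 and Actc1 went from 6.6 to 23.7 kb and from 4.0 to 22.3 kb. Most of these were at a low level at 4 h, with 0.0314 FPKM for Actn2, 0.123 for Mybpc1 and 0.553 for Ttn. Desmin, Des, at 267 FPKM at 4 h, was long at both stages, with 28.5 and 31.7 kb. The exception was Pdlim5, a PDZ and LIM domain protein found also outside muscle, with 80.4 kb in myoblasts and 49.8 kb in myotubes.

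**Figure D4:**
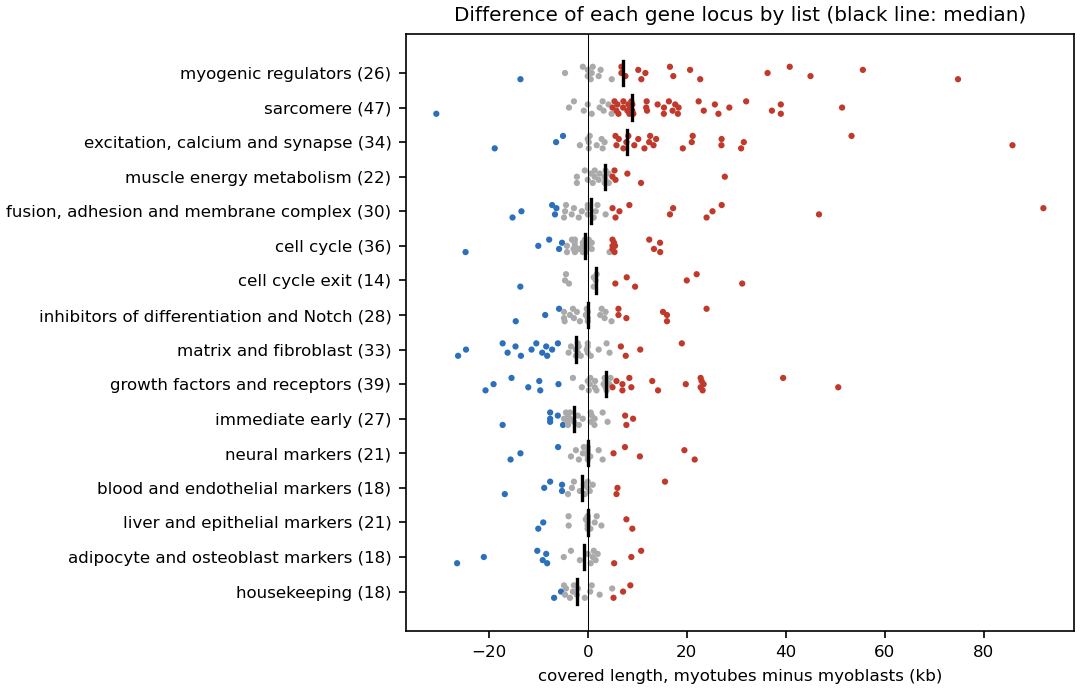
Covered length in myotubes minus myoblasts (kb) of each gene in 16 lists, with the number of genes measured, 1 point a gene (red, 5 kb or more longer; blue, 5 kb or more shorter; grey, between). The black line is the median, 9.0 kb for sarcomere genes and lowest for immediate early, matrix and housekeeping genes, -2.80, -2.40 and -2.10 kb, all 3 above 0 with fold 3 or more and not with every choice.

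Genes of excitation, calcium handling and the synapse followed, with 22 of 34 longer, 3 shorter and a median of 8.0 kb. These shares, 64.7% and 8.82%, stand beside 20% and 10.2% of all loci. The potassium channel gene Kcnn3 went from 28.8 to 115 kb, the ryanodine receptor gene Ryr3 from 16.4 to 69.7 kb and the calcium channel gene Cacna1s from 25.8 to 57.3 kb. Scn4a, the sodium channel of muscle, went from 1.2 to 28.2 kb. Ryr1, the main release channel of adult muscle, went only from 7.8 to 15 kb. The shorter ones were Asph, Musk and Clcn1. Asph was 1.4 kb longer with fold 3 or more and 20.4 kb shorter with the unscaled ratio. Of 22 genes of muscle energy metabolism, 6 were longer and none shorter, with a median of 3.40 kb; the 27.3% that were longer stand beside 20% of all loci. Among them Mb, myoglobin, went from 40.5 to 68.2 kb, while Ckm, muscle creatine kinase, had no domain in myoblasts and 1 of 2.2 kb over its promoter in myotubes. That small domain had a fold of 4.11, and the window held 3 MyoD peaks in myotubes and 0 in myoblasts.

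Among 30 genes of fusion, adhesion and the membrane complex, 11 were longer and 5 shorter, with a median of 0.60 kb. These shares, 36.7% and 16.7%, stand beside 20% and 10.2% of all loci. The list had a median window of 104 kb, and loci with windows from 91.2 kb had 31.5% and 17%. Ncam1, a cell adhesion gene, went from 129 to 221 kb, Dag1, dystroglycan, from 27.2 to 73.9 kb and the protease gene Capn3 from 16.2 to 43.3 kb. The fusion genes Tmem8c (Myomaker) and Gm7325 (Myomixer) went from 20.4 to 37.6 kb and from 25.9 to 34.3 kb. Myof, Jam2 and Kirrel were shorter by 15.2, 13.4 and 7.2 kb, and all 3 were longer with fold 3 or more. With the unscaled ratio Myof was 3.6 kb longer, and Jam2 and Kirrel were 7.6 and 12.6 kb shorter. Growth factors and their receptors split, with 16 of 39 longer, 7 shorter and a median of 3.60 kb. Igf2r went from 52.0 to 103 kb, Tgfb2 from 43.4 to 82.9 kb and Fgfr1 from 24.6 to 48.0 kb. Hgf went from 26.7 to 6.0 kb, Fgfr2 from 34.4 to 15.4 kb and Fgf7 from 86.2 to 70.8 kb. Fgf7 was 4.0 kb longer with fold 3 or more and 20.8 kb shorter with the unscaled ratio.

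Cell cycle genes did not move as a group. Of 36, 10 were longer, 5 shorter and the median was -0.60 kb, 2.90 kb with fold 3 or more and 0.53 kb with flanks of 50 kb. Their shares of 27.8% and 13.9% stand beside 20% and 10.2% of all loci. Cdk6, the partner of D cyclins, went from 44.5 to 19.8 kb and Ccne2, cyclin E2, from 11.2 to 1.2 kb, the latter 0.2 kb longer with fold 3 or more. Cdk1 went from 8.8 to 21.2 kb. Of 14 genes of cell cycle exit, 6 were longer and 1 shorter: Ccnd3, the cyclin that stays on in muscle, went from 31.4 to 62.6 kb, Rb1 from 6.0 to 26 kb and Cdkn1a, the inhibitor p21, from 16.9 to 24.7 kb. Rbl1 was 13.6 kb shorter, and 6.6 kb longer with fold 3 or more. Of 28 inhibitors of differentiation and Notch pathway genes, 7 were longer and 3 shorter with a median of 0.00 kb, shares of 25% and 10.7% that lie near those of all loci. The receptor gene Notch1 went from 33.2 to 57.2 kb and its target Heyl from 16.8 to 32.8 kb, while Twist2, which blocks MyoD, went from 41.4 to 26.8 kb.

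Matrix and fibroblast genes were the list with the highest share of shorter loci, 13 of 33, with 4 longer and a median of -2.40 kb. With domains of fold 3 or more there were 13 longer, 6 shorter and a median of 3.80 kb. At equal covered bases it was 1 and 18 with -5.60 kb, and with the unscaled ratio 8 and 12 with -2.40 kb. The share of shorter loci was 39.4% with all domains, beside 10.2% of all loci. With fold 3 or more it was 18.2% beside 2.79%, and at equal covered bases 54.5% beside 13.4%. The share of longer loci with fold 3 or more was 39.4% beside 24.3%. With the unscaled ratio 3757 of all 20238 loci were longer and 1457 shorter. Col5a2, a fibrillar collagen gene, went from 35.8 to 9.6 kb, Loxl2, a collagen crosslinking enzyme gene, from 57.4 to 32.8 kb and Tnc, tenascin, from 47.2 to 30.0 kb. Tnc was 6.0 kb longer with fold 3 or more. Mmp2, a matrix protease gene, went from 26.7 to 45.7 kb, but lies in a stretch of chromosome 8 with high control reads, described below, and was 15.1 kb shorter at equal covered bases. Immediate early genes gave 3 longer (11.1%), 6 shorter (22.2%) and a median of -2.80 kb over 27 genes. With fold 3 or more 14 were longer (51.9%) and 1 shorter (3.70%), beside 24.3% and 2.79% of all loci. The unscaled ratio gave 8 longer and 2 shorter. Dusp5, a MAP kinase phosphatase gene, went from 35.4 to 18.2 kb and was 7.8 kb longer with fold 3 or more. Over 18 housekeeping genes 3 were longer and 2 shorter, with a median of -2.10 kb, or 4.40 kb with fold 3 or more. The shares, 16.7% and 11.1%, lie near the 20% and 10.2% of all loci. Actb had 24.4 and 22.2 kb, and was longer by 14.8 kb with fold 3 or more and by 4.8 kb at equal covered bases.

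In bases, the largest gains were at long genes. The 15 leading loci with separate windows had windows of 185 to 897 kb, and each had more domains in myotubes, where 11 to 30 MyoD peaks lay against 1 to 11 in myoblasts. First came Fto, an RNA demethylase gene, with 143 and 294 kb. It lies in the stretch of chromosome 8 with high control reads, had pooled folds of 1.73 and 2.12 (all ChIP over all control reads of its domains, on the deposited scale), and gained 20.2 kb at equal covered bases and 0.0 kb with fold 3 or more. Sntb1, a syntrophin of the dystrophin complex, went from 60 to 206 kb with pooled folds of 2.47 and 2.58, or unscaled ratios of 2.88 and 2.63. The RNA-binding protein gene Msi2 went from 126 to 263 kb, with 30 peaks each of MyoD and MyoG in myotubes. Arhgap24, a gene for a GTPase-activating protein, went from 53.8 to 185 kb, Arid1b, a subunit of the BAF remodelling complex, from 82.0 to 211 kb, and Pknox2, a TALE homeobox gene, from 41.2 to 163 kb.

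Smaller starting lengths made some of these gains larger in proportion. Casz1, a zinc finger factor gene, had 4 domains with 11.2 kb in myoblasts and 25 with 112 kb in myotubes, at 0.045 FPKM at 4 h. Its MyoD peaks numbered 1 and 23. Cap2, an actin-binding protein gene, went from 21.8 to 120 kb and Zhx2, a zinc finger and homeobox repressor gene, from 39.2 to 146 kb. Celf2, Cdkal1, Btbd9, Ptprg, Fggy and Agap1 complete the 15, with gains of 98.4 to 121 kb. All 15 gained at equal covered bases. With fold 3 or more 14 gained, though Celf2, a splicing regulator gene, by 5.0 kb only, and it was 9.6 kb shorter with the unscaled ratio. By share of the window Myog was followed by Fam78a (6.34% to 78.2%), Slc12a3 (25.9% to 93.8%), Cpa1 (25.1% to 90%) and Mybph (7.32% to 70.0%). The kidney transporter gene Slc12a3 and the pancreatic enzyme gene Cpa1 had 0.00 and 0.0831 FPKM at 4 h. Slc12a3 lies on the same stretch of chromosome 8 as Fto, and its gain of 52.3 kb was 0.0 kb with fold 3 or more and 55.6 kb at equal covered bases.

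**Figure D5:**
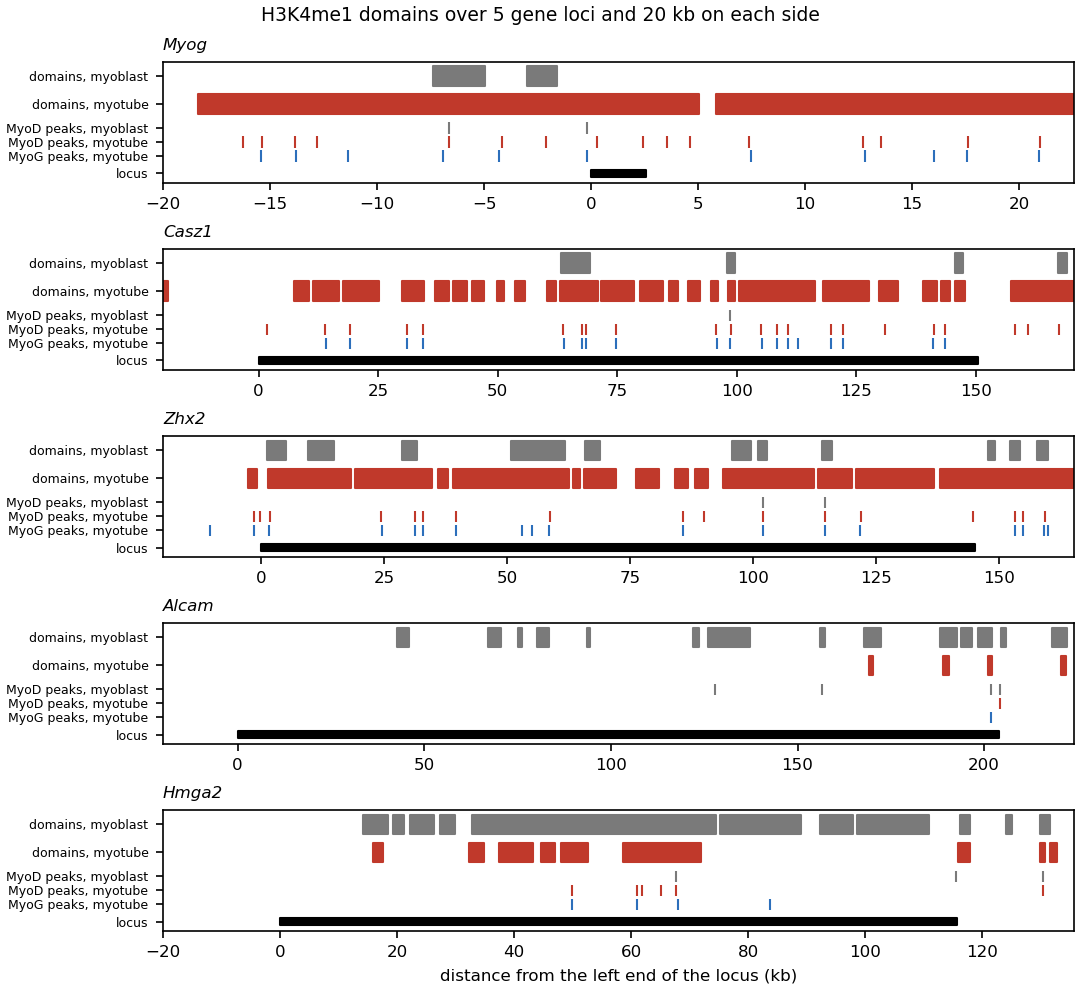
Domains of both stages, MyoD and MyoG peak centres and the extent of the locus (black) over Myog, Casz1, Zhx2, Alcam and Hmga2, in kb from the left end of the locus. Myotube domains fill most of the Myog window and come in many new pieces over Casz1, while Alcam keeps 5.0 of 48.0 kb and the 41.6 kb myoblast domain of Hmga2 is broken up.

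The largest losses were smaller than the largest gains. Ltbp1, which binds latent TGF-beta, went from 160 to 88.8 kb, the adhesion gene Cadm1 from 132 to 67.8 kb and Lpp, a focal adhesion gene, from 255 to 193 kb. Hmga2, an architectural chromatin protein of dividing cells, went from 90.4 to 34.4 kb, and its longest domain from 41.6 to 13.2 kb. Alcam, an adhesion molecule of the immunoglobulin family, went from 48.0 to 5.0 kb and from 14 domains to 4. Its window held 4 MyoD peaks in myoblasts and 1 in myotubes. Ebf1, Fmn1, Pla2g4a, C230081A13Rik, Cubn, Ppp2r2b, Crim1, Bmper and Atxn1 complete the 14 losses reported here, with 40.3 to 55.6 kb. Alcam was not typical in its peaks: 8 of the 14 windows held more MyoD peaks in myotubes than in myoblasts. The medians were 5 peaks in myoblasts and 6 in myotubes.

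Whether enrichment followed length at these loci turned on the scale. Pooled fold was higher in myotubes at 10 of these 14 and at 12 of the 15 that gained most, beside 68.6% of all paired domains. Without the constants it was higher at 4 of the 14 and 10 of the 15, beside 54.9% of pairs. At Hmga2 the unscaled ratio was 2.83 in myoblasts and 3.14 in myotubes. All 14 stayed shorter at equal covered bases. With fold 3 or more, 4 of them were longer in myotubes: Atxn1 by 17.9 kb, Hmga2 by 17 kb, Bmper by 13.0 kb and Ltbp1 by 6.8 kb. With the unscaled ratio all 4 were shorter, by 17.5, 36.8, 43.3 and 25.6 kb. With fold 3 or more Cadm1 and Alcam stayed shorter by 25.6 and 24.6 kb. By share of the window the largest falls were at Grem1, a BMP antagonist gene (54.0% to 11.9%), 2310002L13Rik (52.2% to 11.4%), Klhdc8a (78.3% to 37.8%), Tm4sf1, a membrane protein gene (61.6% to 22.6%), and Rgs4, a regulator of G protein signalling (42.0% to 3.03%). Of these 5, Grem1, Klhdc8a and Rgs4 turned to 0.4, 3.0 and 1.4 kb longer with fold 3 or more. With the unscaled ratio Grem1 and Rgs4 were 9.4 and 0.4 kb shorter and Klhdc8a was 3.0 kb longer.

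Lost and new domains with most reads gave the same picture at single elements. Among the 10 lost domains with most ChIP reads, 2 lay in Hmga2, of 12.2 kb (fold 2.69, 95% exact interval 2.27 to 3.20) and 13.8 kb (2.00, 1.71 to 2.36), and 1 of 11.4 kb in Alcam (3.99, 3.26 to 4.92). The strongest of them by fold lay 16.1 kb from Csda, a cold-shock domain gene, with 636 reads over 118 (4.63, 3.79 to 5.68). A further 4 of the 10 lay on chromosome 8 between 80 and 100 Mb with folds of 1.29 to 1.75. Among the 10 new domains with most reads, those in or near Rpl31, Hdhd3, Gata5, Lmf1, Ppfia4, Macrod1, 4930534B04Rik, D630003M21Rik and Anks1 had folds of 2.58 to 3.91 and 4 or 5 myotube MyoD peaks each, with 0 in myoblasts. The remaining one, in A730008H23Rik, had the most reads, 1673 over 1148, and the lowest fold, 1.43 (1.33 to 1.55).

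The stretch of chromosome 8 from 80 to 100 Mb stood apart in both libraries. Its 5 Mb bins held 25.1 to 30.2 control reads per kb of domain in myoblasts and 25.3 to 27.5 in myotubes, against medians of 15.2 and 12.4 over all bins and highest values elsewhere of 20.9 and 17. These highest bins elsewhere lay on chromosome 15 in both libraries. Chromosome 15 had median folds of 2.03 and 2.29, the lowest of any chromosome. In the stretch of chromosome 8 median folds were 1.62 and 1.64, and covered bases went from 3.84 to 5.67 Mb. Its part in the results at Fto, Slc12a3, Mmp2, Ier2 and Rbl2, which lie on it, was not tested beyond the values given; without it the ratio of covered bases was 1.12 and 3934 loci were longer.

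Around gene starts the mark lay on both sides of active starts at both stages, and its peaks on either side were lower in myotubes. Over 4042 loci with 10 FPKM or more at 4 h, coverage at the start was 17.4% in myoblasts and 16.9% in myotubes. It reached 57.1% and 46.9% upstream, within 1 kb, and 75.5% and 70.9% at 1.6 kb downstream. The order was not the same throughout: at 0.6 kb downstream coverage was 28.4% in myoblasts and 33.6% in myotubes, and at 10 kb downstream it was 22.4% and 26.2%. Loci under 0.1 FPKM, 5153 of them, had 6.98% and 7.43% at the start and no dip.

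Markers of other cell types were checked against the label. Of 10 skeletal muscle markers, 9 had a domain in their window in myoblasts and all 10 in myotubes, with median lengths of 9.2 and 27 kb. Of 4 neural markers 2 were marked in myoblasts and 0 in myotubes, at most over 1.8 kb. Over a wider list of 21 neural genes the medians were 2.4 and 3.8 kb, and 4 had no domain at either stage. Of these 21, Dcx gained most, 21.6 kb. Other types were not bare either. All 3 epithelial markers were marked at both stages, over up to 18.8 and 19.3 kb, and 2 and then 3 of 3 endothelial markers, with medians of 2.6 and 8.4 kb. Of 3 liver and 3 blood markers measured, 2 each were marked at both stages, with medians of 0.6 and 2.2 kb for liver and 3.8 and 0.6 kb for blood, and both adipocyte markers were marked. Within these types and their wider lists Alb, Gata1 and Elavl4 had no domain at either stage. Most listed genes had one: 2 of 18 blood and endothelial and 7 of 21 liver and epithelial genes had none. The part of other cell types in the results was not tested. Over the wider lists, 5 of 21 neural genes were longer and 3 shorter, and 3 and 5 of 18 blood and endothelial genes. For liver and epithelial genes it was 2 and 2 of 21, for adipocyte and osteoblast genes 3 and 6 of 18. In this order 23.8%, 16.7%, 9.52% and 16.7% were longer, beside 20% of all loci. The shares of shorter genes were 14.3%, 27.8%, 9.52% and 33.3%, beside 10.2% of all loci. With fold 3 or more the blood and endothelial genes gave 2 longer and 1 shorter (11.1% and 5.56%). The adipocyte and osteoblast genes gave 5 and 2 (27.8% and 11.1%) on that choice, beside 24.3% and 2.79% of all loci. At equal covered bases liver and epithelial genes gave 1 and 5 (4.76% and 23.8%), beside 16.3% and 13.4% of all loci. The bone factor Runx2 and the fat cell factor Pparg were shorter by 26.4 and 21.0 kb, and longer by 27.8 and 6.6 kb with fold 3 or more. With the unscaled ratio Runx2 was 5.6 kb longer and Pparg 15.4 kb shorter. In bulk cells fewer cells with a mark and less mark per cell cannot be told apart.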

How the data were processed

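H3K4me1 ChIP-seq of C2C12 myoblasts and myotubes was used, 1 library a stage. Per the submitters' processing notes SICER and TopHat were run, on mm9; no versions are given. The deposited domain lists lie on 200 bp windows and give for each domain the count of ChIP reads, the count of control reads, a p-value with its adjusted value (at most 0.05) and a fold, all by the authors. Reads in domains came to 9555012 in myoblasts and 8842751 in myotubes, which are not library depths. Per the file headers, MACS produced the peaks of both factors; their deposited score is 60 or more. Expression is the deposited FPKM of the authors in the GFP controls at 4 h, summed over coding sequences of a symbol. The DRRi and pHAN_DRR1.2 libraries were not used here.

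Loci were the union of a symbol's coordinates in those tables: of 20368 symbols, 81 at several places and 49 on chromosomes without domains were left out, and 2005 share a locus with another symbol. Covered bases were summed over each locus with 20 kb flanks. Overlap meant 1 bp or more. Shares have exact Clopper-Pearson intervals and folds exact intervals from the binomial split of ChIP and control reads, for counting error only. Python 3.11.15 with numpy 2.4.6, pandas 2.3.3 and scipy 1.17.1 was used, and interval arithmetic was tested on simulated data.

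Named are the 15 loci with the largest gain and the 15 with the largest loss in bases, after dropping loci whose windows overlap a leader, the 5 and 5 by share of the window, 3 and 3 per gene list, Myod1, Myog, Myf5, Myf6, Mef2c, Ckm and Actb, the 3 longest domains of each stage and the 10 with most ChIP reads among those without a counterpart. Of the 15 losses, 1 is not reported here. Other genes of the lists, neighbours of Myog and the printed promoters were chosen after their values were seen. Members and lists were chosen with earlier results of these data known. Alternatives were other flanks, a fold of 3 or more, equal covered bases, joined gaps and stricter calls. Promoter sequences are from RefSeq, build GRCm38.p6, matched by symbol, and no coordinates were converted.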

Additional observations from a re-analysis of the deposited data

How the results depend on the processing

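No paired analysis was possible because each stage has 1 library and no test was made. The counts of longer and shorter loci stayed within 1.5 times of 4045 and 2059 at equal covered bases (3289 and 2716), with each distinct locus counted once (3751 and 1927) and without chromosome 8 from 80 to 100 Mb (3934 and 2052). They were 2684 and 1175 with flanks of 5 kb, 5712 and 3228 with flanks of 50 kb, 4924 and 565 with a fold of 3 or more, 2020 and 631 at a difference of 10 kb, and 2872 and 1170 at a difference of 10 points of the window. The last of these, the count of distinct loci, the unscaled ratio and every alternative without chromosome 8 were chosen after seeing the data. Of the 2059 shorter loci, 342 were shorter and 354 longer with a fold of 3 or more; of the 4045 longer loci, 2463 were longer and 42 shorter. At equal covered bases 1731 and 2795 kept their calls.

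The shares of overlapping myoblast and myotube domains were 64.1% and 59.2% when 50% of the domain had to be covered, 42.5% and 24.7% with a fold of 3 or more, and 43.8% and 40.3% with an unscaled ratio of 3 or more. The ratio of covered bases was 1.96 with a fold of 3 or more, 1.18 with the unscaled ratio and 1.12 without the stretch of chromosome 8. Median lengths were 2.4 and 2.6 kb after joining gaps of 1 kb or less. Median folds of domains that overlap the other stage were 2.35 and 2.85. With peaks of score 100 or more, 23.7% of new and 2.12% of lost domains met a myotube MyoD peak.

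Of 139 named loci, the sign of a called difference turned, in kb, with a fold of 3 or more for Ampd1 -0.8, Asph 1.4, Atxn1 17.9, Bmper 13, Ccne2 0.2, Dusp5 7.8, E2f2 12, Egr3 6.6, Eya4 24.4, Fgf7 4.0, Fosl1 12, Grem1 0.4, Hmga2 17, Jam2 9.0, Kirrel 25.4, Klhdc8a 3.0, Ltbp1 6.8, Mbp 7.8, Mmp2 -7.0, Myof 3.6, Pecam1 5.8, Pparg 6.6, Rbl1 6.6, Rgs4 1.4, Rpl13a 4.6, Runx2 27.8, Sdha -2.2, Snai1 10, Tnc 6.0, Tubb5 9.3, Vwf -5.0 and Ywhaz -1.0. At equal covered bases it turned for Ampd1 -1.6, Fbn1 -11.5, Ier2 -1.8, Mmp2 -15.1, Sdha -3.2, Tubb5 2.8 and Ywhaz -5.7. With flanks of 5 kb it turned for Id2 2.4, Ppia -2.9 and Snai1 0.29, and with flanks of 50 kb for Sdha -1.4. The cause of these changes was not tested.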

Other observations

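Covered bases were higher in myotubes on each autosome, from 5.15% more on chromosome 3 to 22.8% more on chromosome 8, and lower on the X chromosome, where they fell by 8.69%, from 2.39 to 2.19 Mb. X domains numbered 941 in myoblasts and 790 in myotubes, and their median deposited folds were 2.39 and 2.40. The largest window of all, the 2296 kb of Dmd, the X-linked gene of dystrophin, had no domain at either stage and 0.00 FPKM in the GFP control at 4 h. Its partners in the membrane complex Dag1 and Sntb1 were 46.7 and 146 kb longer in myotubes. On the X the neural gene Dcx stood apart, with 1.4 kb in myoblasts and 23.0 kb in myotubes, 7 MyoD peaks in myotubes and 0 in myoblasts, and 0.00652 FPKM at 4 h.

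Bases in lost domains lay farther from genes than the other classes. Of shared bases 58.8% lay inside a locus, of bases in new domains 53.8% and of bases in lost domains 40.3%, while 49.3% of the last lay more than 5 kb from every locus against 38.6% for new domains and 38.5% for bases trimmed from domains that stayed. Whether a domain touched several of the other stage was alike for both lists: 3960 myoblast and 3751 myotube domains met 2 or more, with up to 8 and 11.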
